A study of Mus musculus with 6 samples.

Results

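The 9 genes described here are regulators and markers of trophectoderm, the outer layer of the blastocyst that forms the placenta: Cdx2, Elf5, Gata2, Gata3, Hand1, Ascl2, Tpbpa, Krt8 and Krt18. They were chosen by name, and all of their probes were used: 11 of the 41174 probes and 9 of the 27677 gene names on the array. The arrays carry both keratins under older symbols, which were matched through their RefSeq transcripts. The choice was made with the values of the hairpins and controls within each day known, so differences between vectors are given below as descriptions, without a test. The difference between the days was not used in the choice and is tested.

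Total RNA came from 6 samples of male mouse cells of a mixed C57BL/6 and 129SV background. The cells were Oct4-GFP embryonic stem cells, differentiated in culture towards primordial germ cells, that carried a hairpin vector or a control vector with a tdTomato marker. Both hairpins, called hairpin 2 and hairpin 1 after the labels, target Dazl, an RNA-binding protein of germ cells. Cells positive for both GFP and tdTomato were sorted on day 12 or day 9 of differentiation, and each combination of day and vector gave 1 array. All 6 samples therefore share the reporter, the differentiation protocol and the sort. The labels name no separate cultures, and a p-value here covers only how far the 6 samples scatter, which may be technical. Embryonic stem cells were freed of feeder cells by plating before differentiation, per the labels.

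Values are log2 signals relative to the 75th percentile of the same array, which is set to 0. That percentile stood at a signal of 629 to 745, between 70.3% and 73.3% of probes were well above background, and pairs of arrays correlated with r of 0.980 to 0.995. Hairpin 2 of day 9 was the array least like the rest. Its highest r with another array was 0.984, while the highest r of every other array was 0.993 to 0.995. Dazl had a signal of 36.3 with hairpin 2 and 48.3 with hairpin 1 against 1330 in the control at day 12. On day 9 it read 24.8 with hairpin 2 and 23.2 with hairpin 1 against 499 in the control (probe A_51_P246060). The arrays of a day lay together on 1 slide, read in 1 scan, and hairpin 2, hairpin 1 and control took positions 4, 3 and 2 on either slide. Effects of day and slide, and of vector and position, cannot be told apart. Of 12 listed markers of pluripotent and germ cells, 11 had a probe, and those 11 were well above background on every array, Pou5f1, Nanog, Dppa3, Ddx4 and Kit among them.

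In the mouse blastocyst, TEAD4 working with YAP1 turns on Cdx2 and Gata3 in the outer cells, and these factors direct the trophectoderm programme while the inner cells keep Oct4. Elf5 then helps to maintain trophoblast stem cells, and Hand1 and Ascl2 act in the branches that lead to giant cells and to spongiotrophoblast. Embryonic stem cells descend from the inner cells and form trophoblast rarely. Several of these genes also act in the embryo itself, Cdx2 in the gut and posterior axis, Gata2 in blood, Gata3 in many epithelia, Hand1 in heart and lateral mesoderm, and Krt8 and Krt18 in every simple epithelium.

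Upstream sequences from RefSeq (GRCm38.p6) were matched for 8 of the 9 genes, with 10 start sites in all. Those of Cdx2 and Elf5 are shown as the regulators that differed most between the hairpins, and those of Krt8 and Krt18 as the neighbouring pair of keratin genes. Each run is the 250 bases before a start site, 5′ to 3′ on the gene's strand, and capitals mark a match to a searched motif. Cdx2 lies on the minus strand (chr5:147307250-147307499), Elf5 has 2 starts on the plus strand (chr2:103411848-103412097 and chr2:103423818-103424067), Krt8 lies on the minus strand (chr15:102004343-102004592) and Krt18 on the plus strand (chr15:102027966-102028215).
Cdx2: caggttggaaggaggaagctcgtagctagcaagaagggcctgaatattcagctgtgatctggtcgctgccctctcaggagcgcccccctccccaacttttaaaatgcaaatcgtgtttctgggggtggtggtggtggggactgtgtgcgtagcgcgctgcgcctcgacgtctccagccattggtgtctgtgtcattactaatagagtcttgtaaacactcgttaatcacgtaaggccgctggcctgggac
Elf5, distal start: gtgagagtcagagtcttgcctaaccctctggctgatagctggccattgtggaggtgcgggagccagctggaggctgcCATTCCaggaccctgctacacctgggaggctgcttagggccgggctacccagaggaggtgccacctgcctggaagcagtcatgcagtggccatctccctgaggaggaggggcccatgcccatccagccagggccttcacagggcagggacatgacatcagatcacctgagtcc
Elf5, proximal start: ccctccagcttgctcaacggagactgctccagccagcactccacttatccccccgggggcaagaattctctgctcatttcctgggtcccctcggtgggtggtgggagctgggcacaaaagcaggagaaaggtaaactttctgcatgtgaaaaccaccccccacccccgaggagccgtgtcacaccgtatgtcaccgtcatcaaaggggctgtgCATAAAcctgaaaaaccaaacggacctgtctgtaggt
Krt8: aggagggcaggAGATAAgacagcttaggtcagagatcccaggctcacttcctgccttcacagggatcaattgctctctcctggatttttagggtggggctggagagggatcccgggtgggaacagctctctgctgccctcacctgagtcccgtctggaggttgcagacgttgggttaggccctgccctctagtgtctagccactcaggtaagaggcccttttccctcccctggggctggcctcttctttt
Krt18: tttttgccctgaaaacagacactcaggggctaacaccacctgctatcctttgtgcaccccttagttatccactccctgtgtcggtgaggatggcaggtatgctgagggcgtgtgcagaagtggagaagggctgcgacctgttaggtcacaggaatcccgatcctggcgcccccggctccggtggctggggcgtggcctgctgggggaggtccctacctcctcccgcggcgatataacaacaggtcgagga

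The motifs searched on both strands were TTTATG for CDX factors, AGATAA for GATA factors, GGAATG for TEAD factors, CCGGAAG for ETS factors and GGGCGG for the GC box; none of these strings contains another. The CDX string stood in the proximal Elf5 sequence and in a Tpbpa sequence, 2 of the 10, against 10.8% of all 32851 upstream sequences of the same length. The GATA string stood in the Krt8 sequence alone, against 9.99% of all. The TEAD string stood in the distal Elf5 sequence and in a Gata2 sequence, against 12.6% of all. The ETS string stood in none of the 10, against 6.91% of all, and the GC box in 4 of them, all of Ascl2, Gata2 or Gata3, against 32.7% of all. The Cdx2 and Krt18 sequences held none of these strings. A match describes letters in this window and is not a binding site.

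The 9 genes did not move as a block with the knockdown of Dazl: the arrays of the 2 hairpins lay on opposite sides of the control for most of them. With hairpin 1, Cdx2, Elf5, Gata2, Hand1 and Krt8 were above the control on both days, and with hairpin 2 they were below it on both days, on every probe. This order held for 7 of the 11 probes, against a background of 3.44% of all 30214 probes tested, and the mirror order, hairpin 2 highest and hairpin 1 lowest, held for 0 of the 11 against 3.89%. Gata3 and Tpbpa were below the control with both hairpins, and Ascl2 was the 1 gene with more signal in hairpin 2 than in hairpin 1 on both days, which 30.5% of all probes showed (18.8% without overlap of the groups). Since vector differences were known when the genes were chosen, these shares describe the set and support nothing beyond it.

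**Figure D1:**
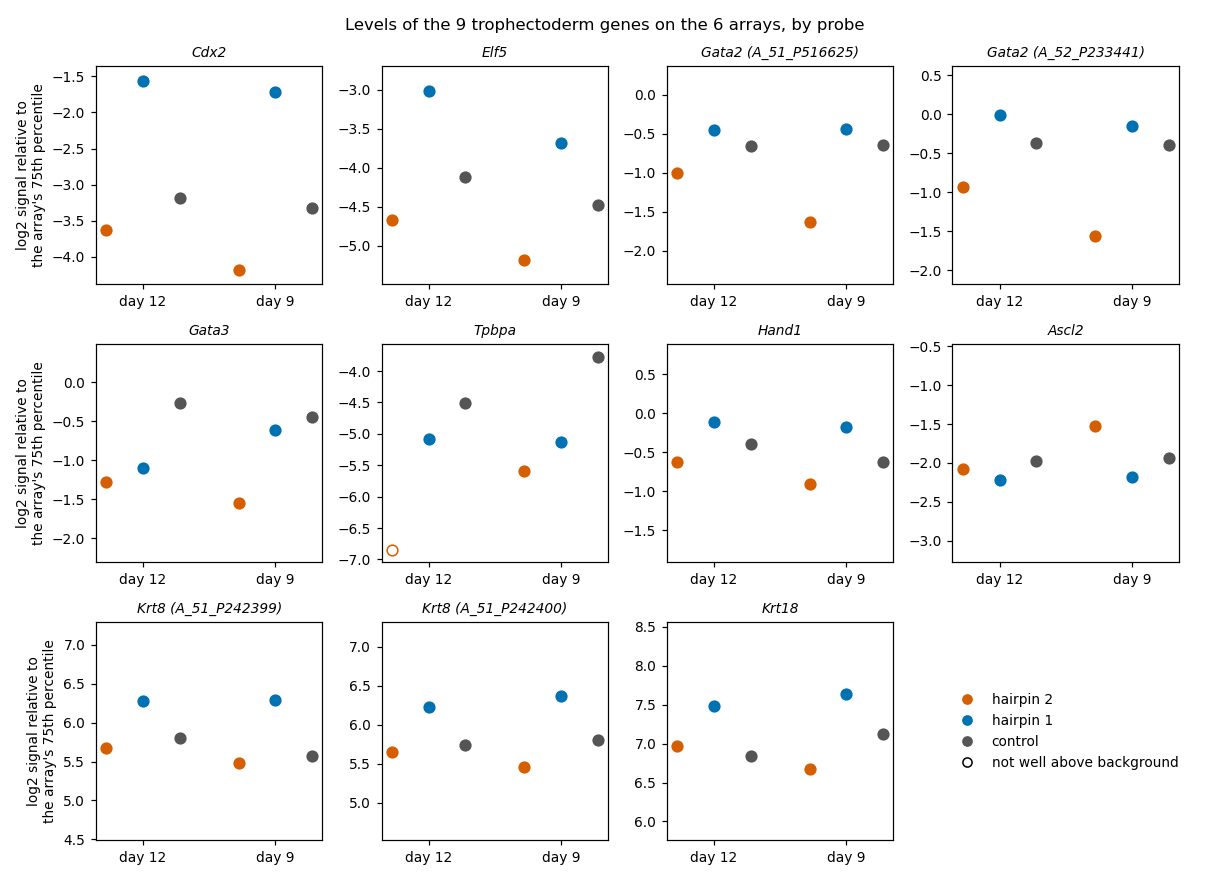
Log2 signal relative to the array's 75th percentile (vertical axis) for each probe of the 9 genes on the 6 arrays, with day 12 left of day 9 and hairpin 2, hairpin 1 and control in that order within a day; each point is 1 array and the open point was not well above background. Hairpin 1 is the highest point of both days for Cdx2, at -1.56 on day 12 and -1.72 on day 9, and the control is highest for Gata3 and Tpbpa.

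Cdx2 (probe A_52_P177490, transcript NM_007673, chr5:147300900-147307249), the homeodomain factor that defines trophectoderm, differed most between the hairpins. At day 12 its log2 level was -3.62 with hairpin 2 and -1.56 with hairpin 1, against -3.19 in the control. Levels at day 9 were -4.18 with hairpin 2 and -1.72 with hairpin 1, against -3.33 in the control. Both hairpin 1 arrays stood far above the other 4 arrays, and both hairpin 2 arrays stood lowest. The signal with hairpin 1 was 3.09-fold that of the control at day 12 and 3.04-fold at day 9, whereas with hairpin 2 it was 74.0% of the control at day 12 and 55.3% at day 9. Hairpin 2 minus hairpin 1 was -2.26 over both days (SE 0.19, 4.79-fold), larger in size than for 99.9% of all probes tested. In scanner units the Cdx2 signals were 51.6 and 41.1 in hairpin 2 and 232 and 199 in hairpin 1, against 76.7 and 62.7 in the control.

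Elf5 (A_51_P455866, chr2:103412098-103450989), an ETS factor of trophoblast stem cells, followed the same order. Its log2 level at day 12 was -4.68 with hairpin 2 and -3.01 with hairpin 1, against -4.11 in the control. On day 9 the level was -5.18 with hairpin 2 and -3.68 with hairpin 1, against -4.48 in the control. Again the 2 hairpin 1 arrays were the highest and the control lay between the hairpins on both days. Hairpin 2 minus hairpin 1 was -1.58 (SE 0.18, 2.998-fold). Elf5 signals were 20.5 to 84.9, and the size of this difference depended on how background was treated. The alternative was normexp, a model-based background correction, which here also added an offset of 50 to every signal. With normexp the Elf5 difference was -0.11, while that of Cdx2 was -1.08. An added constant by itself shrinks log2 differences of dim probes, and its part in these values was not tested. The median of all probes stood at 0.21 in that setting.

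Gata2 (chr6:88193891-88207032), a zinc finger factor that in trophoblast acts on placental hormone genes, was read by 2 probes. On A_52_P233441 the log2 level at day 12 was -0.93 with hairpin 2 and -0.0016 with hairpin 1, against -0.37 in the control. The day 9 values were -1.56 with hairpin 2 and -0.15 with hairpin 1, against -0.39 in the control. Most of the spread came from the hairpin 2 arrays, which were the lowest on both days. The other probe, A_51_P516625, had -1.01 with hairpin 2 and -0.45 with hairpin 1, against -0.65 in the control, at day 12. It had -1.63 with hairpin 2 and -0.44 with hairpin 1, against -0.64 in the control, at day 9. The 2 probes gave hairpin 2 minus hairpin 1 as -1.17 (SE 0.21) and -0.87 (SE 0.23), and their values correlated with r = 0.990 over the 6 arrays, which share the libraries.

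Gata3 (A_52_P546363, chr2:9857078-9887953), the GATA factor that acts beside Cdx2 in trophectoderm, had another order. Its log2 level at day 12 was -1.27 with hairpin 2 and -1.10 with hairpin 1, against -0.27 in the control. Day 9 arrays gave -1.55 with hairpin 2 and -0.62 with hairpin 1, against -0.45 in the control. Both controls lay above all 4 knockdown arrays, although hairpin 1 at day 9 differed from its control by only -0.16 on the log2 scale. Knockdown minus control was -0.78 (SE 0.28) over both days.

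Hand1 (A_51_P342549, chr11:57828713-57832147), a basic helix-loop-helix factor needed for trophoblast giant cells, spanned 0.80 log2 units over the 6 arrays. Its log2 level at day 12 was -0.62 with hairpin 2 and -0.11 with hairpin 1, against -0.39 in the control. On day 9 its level was -0.91 with hairpin 2 and -0.18 with hairpin 1, against -0.63 in the control. Hairpin 1 was highest and hairpin 2 lowest within each day, yet hairpin 2 at day 12 and the control at day 9 were nearly equal. Hairpin 2 minus hairpin 1 was -0.62 (SE 0.17, 1.54-fold).

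Ascl2 (A_51_P469147, chr7:142966822-142969264), an imprinted basic helix-loop-helix gene needed for spongiotrophoblast, went the other way from Cdx2. Its log2 level at day 12 was -2.08 with hairpin 2 and -2.22 with hairpin 1, against -1.98 in the control. Day 9 gave -1.53 with hairpin 2 and -2.18 with hairpin 1, against -1.93 in the control. The 5 arrays other than hairpin 2 at day 9 lay close together, and that array stood above them. Hairpin 2 minus hairpin 1 was 0.40 (SE 0.20), and 0.15 when hairpin 2 of day 9 was left out.

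Tpbpa (A_51_P137926, chr13:60938492-60941936), the secreted marker of spongiotrophoblast, was highest in the controls. At day 12 its log2 level was -6.84 with hairpin 2, where the probe was not well above background, and -5.08 with hairpin 1, against -4.51 in the control. Levels at day 9 were -5.60 with hairpin 2 and -5.13 with hairpin 1, against -3.77 in the control. At day 12 hairpin 2 was at least 4.64-fold lower than the control and at least 3.12-fold lower than hairpin 1, taking the array's lowest signal well above background as the bound. Knockdown minus control was -1.52 (SE 0.47, measured values) over both days, and -0.094 with normexp. Its signals were 5.54 to 46.0, all below the offset of 50 that normexp added here. That correction also turned the sign of hairpin 2 minus hairpin 1, 0.34 in place of -1.11 (SE 0.32).

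Krt8 and Krt18 encode the paired keratins of simple epithelia and are the first intermediate filament proteins of trophectoderm; their genes are neighbours on chromosome 15. Krt8 (A_51_P242399, chr15:101996711-102004342) had a log2 level of 5.68 with hairpin 2 and 6.28 with hairpin 1, against 5.80 in the control, at day 12. The day 9 arrays read 5.49 with hairpin 2 and 6.29 with hairpin 1, against 5.58 in the control. Hairpin 1 was clearly highest, and hairpin 2 differed from the control by little, -0.12 at day 12 and -0.090 at day 9. The other Krt8 probe, A_51_P242400, had 5.65 with hairpin 2 and 6.23 with hairpin 1, against 5.74 in the control, at day 12. Day 9 values were 5.46 with hairpin 2 and 6.37 with hairpin 1, against 5.80 in the control.

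Krt18 (A_51_P324814, chr15:102028216-102032026) had 6.97 with hairpin 2 and 7.49 with hairpin 1, against 6.85 in the control, at day 12. On day 9 the probe had 6.68 with hairpin 2 and 7.64 with hairpin 1, against 7.13 in the control. Hairpin 1 was the highest on both days, while hairpin 2 was above the control at day 12 and below it at day 9. Krt18 signals reached 131000 with hairpin 1 without being marked as saturated. Hairpin 2 minus hairpin 1 was -0.70 (SE 0.17) and -0.75 (SE 0.18) on the Krt8 probes and -0.74 (SE 0.21) on the Krt18 probe. These probes kept their differences with normexp, which gave -0.77 and -0.83 for Krt8 and -0.83 for Krt18.

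Over both days, 10 of the 11 probes were lower with hairpin 2 than with hairpin 1 in each day's pair, against a background of 27.8% of all probes tested. The values of the 2 groups of arrays did not overlap for those 10 probes, against 18.5% of all. A fitted difference of at least 2-fold lower was seen for 4 probes, those of Cdx2, Elf5 and Tpbpa and 1 of Gata2, against 1.46%. With normexp, where the median of all probes was itself shifted to 0.21, only that of Cdx2 remained past 2-fold, with Gata2 at -0.91. With 1 array left out the smallest differences were -0.90 for that Gata2 probe and -0.59 for Tpbpa. The median difference of the 11 probes was -0.75, with -0.58 at day 12 and -0.94 at day 9, beside a median of 0.01 over all probes tested. The Dazl probes differed between hairpin 2 and hairpin 1 by -0.20 (SE 0.19) and 0.59 (SE 0.24), and the part of the remaining Dazl in these differences was not tested.

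**Figure D2:**
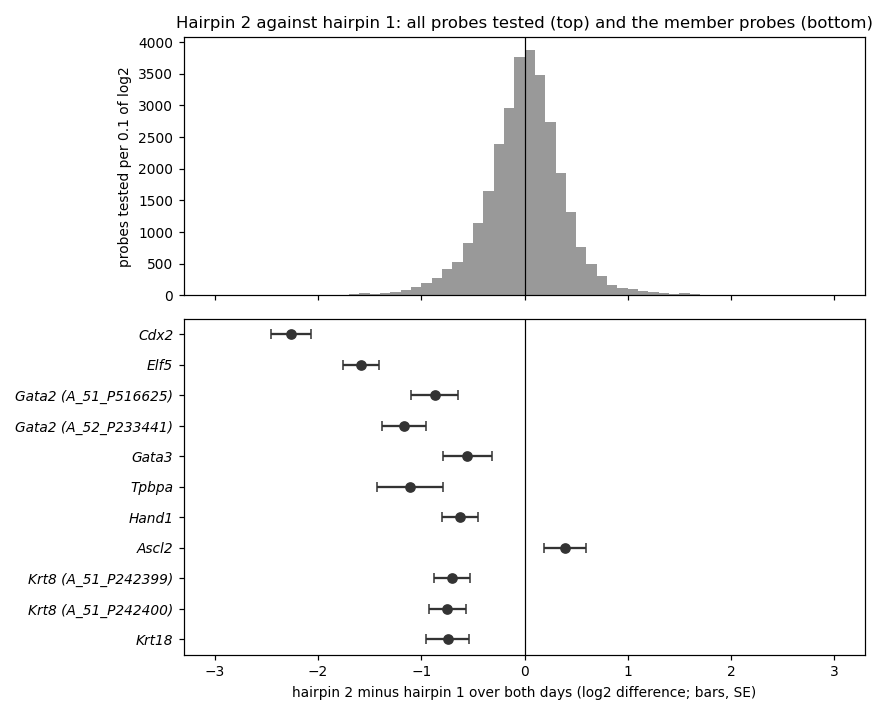
Top, histogram of hairpin 2 minus hairpin 1 over all 30214 probes tested (horizontal axis, log2 difference over both days; vertical axis, probes per 0.1 of log2); bottom, the same difference for the 11 probes of the 9 genes on the same axis, points with bars of 1 SE, 2 arrays of each hairpin. All probes but Ascl2 lie left of 0, with Cdx2 at -2.26 and Elf5 at -1.58 farthest out.

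Set against the control, the average over the hairpins hid these opposite positions. Knockdown minus control was 0.49 (SE 0.81) for Cdx2, 0.16 (SE 0.58) for Elf5, 0.05 (SE 0.26) for Hand1 and -0.05 (SE 0.22) for Ascl2. It was -0.23 (SE 0.36) and -0.28 (SE 0.45) on the Gata2 probes, 0.25 (SE 0.29) and 0.16 (SE 0.30) on those of Krt8, and 0.20 (SE 0.31) for Krt18. Each of these differences was smaller than its SE in this fit. With the vector as a block the SE was 0.17 for Cdx2, 0.15 for Elf5, 0.19 and 0.18 for Gata2, 0.15 and 0.16 for Krt8 and 0.18 for Krt18, each below the size of its difference, which was not so for Hand1 or Ascl2. The blocked fit takes the gap between hairpin 2 and hairpin 1 out of the residual spread. Gata3 and Tpbpa were the 2 of 11 probes lower with either hairpin on either day (4 of 4 pairs), against 19.1% of all probes tested, and the 2 whose groups did not overlap, against 11.9%. No probe of the 9 genes was higher in all 4 pairs, against 14.9%. The median over the 11 probes was -0.35 for hairpin 2 and 0.37 for hairpin 1 at day 12, and -0.71 for hairpin 2 and 0.46 for hairpin 1 at day 9. These 4 differences share 2 control arrays.

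**Figure D3:**
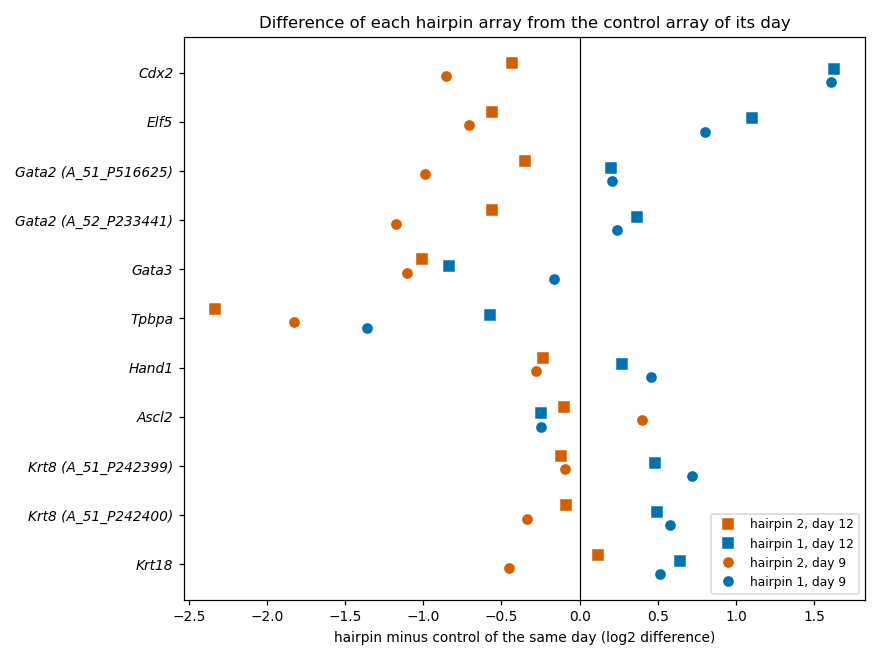
Difference of each hairpin array from the control array of its day (horizontal axis, log2 difference) for the 11 probes, 1 row per probe; squares are day 12 and circles day 9, and each control serves both hairpins of its day. Hairpin 1 reaches 1.63 for Cdx2 at day 12, hairpin 2 reaches -2.33 for Tpbpa at day 12, and Gata3 and Tpbpa have all 4 points left of 0.

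Day 12 against day 9 asked whether the genes shifted as differentiation went on, with 3 arrays of each day. No probe of the 9 genes passed, against 17 of 30214 probes called by limma (0.0563%), and 0 of the 11 had an unadjusted p under 0.05, against 10.7%. This fit, which gave the intervals below, leaves the gap between the hairpins in the residual spread. Probes with a large gap, as most of the 11 had, therefore have wide intervals here and fall under 0.05 less readily. Groups overlapped for all 11 probes, where 7.58% of all probes had lower and 8.68% higher values at day 12 without overlap. Elf5 had the largest positive difference, 0.51 (95% interval -0.82 to 1.85, adjusted p = 0.777), and was higher at day 12 in 3 of 3 pairs of arrays with the same vector. With the vector as a block its SE was 0.14 and its adjusted p = 0.214, and it was then the 1 of 11 probes with an unadjusted p under 0.05, against 13.4%; none of the 11 passed in that fit, against 0.814%. Cdx2 also was higher in 3 of 3 pairs, by 0.28 (95% interval -1.59 to 2.16, adjusted p = 0.915), and its SE was 0.16 with the vector as a block in place of 0.77. Hand1 had 0.20 (95% interval -0.40 to 0.80, adjusted p = 0.808), higher in 3 of 3 pairs.

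Ascl2 was lower at day 12 in 3 of 3 pairs, by -0.21 (95% interval -0.71 to 0.29, adjusted p = 0.761), mostly through hairpin 2. Tpbpa had the largest negative difference, -0.64 (95% interval -1.74 to 0.45, adjusted p = 0.670), lower in 2 of 3 pairs; with hairpin 2 it was at least 2.18-fold lower at day 12. The Gata2 probes had 0.20 (adjusted p = 0.866) and 0.27 (adjusted p = 0.851), and Gata3 had -0.0082 (95% interval -0.65 to 0.63, adjusted p = 0.995). Among the keratins, Krt8 had 0.13 (adjusted p = 0.886) and -0.0060 (adjusted p = 0.996) on its probes, and Krt18 had -0.049 (95% interval -0.77 to 0.67, adjusted p = 0.963). Probes higher at day 12 in every pair numbered 4 of 11, against 20.4%, and lower in every pair 1 of 11, against 18.5%.

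Across the 6 arrays most of the genes ran together. Pearson's r of log2 values was 0.958 between Cdx2 and Elf5, 0.957 between Cdx2 and Hand1, 0.980 between Cdx2 and Krt8 and 0.978 between Krt8 and Krt18. Ascl2 ran against them, with r = -0.823 against Cdx2. Gata3 and Tpbpa stood apart from Cdx2, with r of 0.299 and 0.207, and were closer to each other (r = 0.738). These correlations describe 6 arrays that share days, slides and vectors, and no p is attached to them.

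The genes most like each member were taken over the same 6 arrays from 8389 genes (8390 for Ascl2), well above background throughout and with an SD of at least 0.25. For Cdx2 they were Pbxip1 (r = 0.998), Aqp8 (r = 0.995), a water channel, and Dnajc3 (r = 0.993), a chaperone of the endoplasmic reticulum. For Elf5 they were Zfp943 (r = 0.997), the tetraspanin Cd82 (r = 0.993) and Sbsn (r = 0.990). For Krt18 they were the homeobox gene Msx2 (r = 0.994), the lamin gene Lmna (r = 0.993) and Obsl1 (r = 0.992). For Krt8 they were D14Ertd581e (r = 0.991), Pitpnm1 (r = 0.990) and the receptor Tgfbr2 (r = 0.990).

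For Hand1 the nearest genes were Cd82 (r = 0.987), the receptor Pdgfra (r = 0.986) and the importin Ipo5 (r = 0.986). For Gata2 they were the transcripts AK035254 (r = 0.990) and AK043132 (r = 0.988) and Ehd4 (r = 0.985). For Gata3 they were the helicase Ddx52 (r = 0.997), the chromatin remodeller Chd4 (r = 0.994) and the histone demethylase Kdm5a (r = 0.990). For Ascl2 they were the insulin gene Ins2 (r = 0.997), Tro (r = 0.997), which encodes trophinin, and Eef1aknmt (r = 0.993). Like Ascl2, each of these was highest with hairpin 2 at day 9, so that 1 array weighs heavily in these r. Tpbpa was left out because 1 of its values was not well above background.

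Aqp8 carried the Cdx2 order at a larger scale. Its log2 level at day 12 was -3.18 with hairpin 2 and 1.10 with hairpin 1, against -1.97 in the control. On day 9 the level was -3.86 with hairpin 2 and 0.77 with hairpin 1, against -2.76 in the control. Hairpin 2 minus hairpin 1 was -4.46 (SE 0.19, 21.95-fold). Aqp8 was picked for its likeness to Cdx2 over these same arrays, so this difference is a description too.

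**Figure D4:**
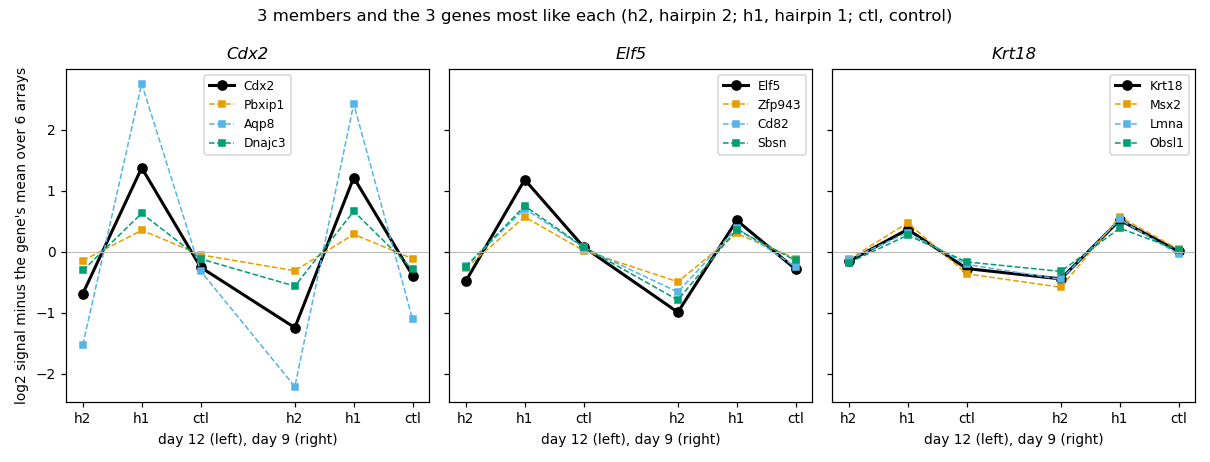
Log2 signal minus each gene's mean over the 6 arrays (vertical axis) for Cdx2, Elf5 and Krt18 (black) and the 3 genes whose values correlated best with each (coloured, dashed), with the arrays in the order hairpin 2, hairpin 1, control for day 12 and then for day 9. In each panel hairpin 1 is the peak of both days, and Aqp8, with r = 0.995 to Cdx2, spans the widest range.

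Other genes of the trophoblast lineage were read from a list of 25, of which 24 had a probe and 22 were tested. With hairpin 2, 16 of the 22 were lower than with hairpin 1 and 6 higher, with a median of -0.39 beside 0.02 over all genes. Limma called none of them in this comparison, where 1 of all 30214 probes passed (0.00331%), that of Aqp8. Pcdh12, a protocadherin of glycogen trophoblast, had -1.29 (SE 0.17, adjusted p = 0.127) and the kinase Nrk -1.24 (SE 0.32, adjusted p = 0.296). Eomes, which maintains trophoblast stem cells, had -0.09 (SE 0.20), Tead4 0.02 (SE 0.17) and Tfap2c -0.12 (SE 0.19); these 3 were named after their values were seen. The summed level of the listed genes, in multiples of the 75th percentile, was 54.7 with hairpin 2 and 65.8 with hairpin 1 against 64.1 in the control at day 12. The day 9 values were 50.2 with hairpin 2 and 63.9 with hairpin 1 against 65.4 in the control. The sum was thus lower with hairpin 2 than with the other vectors, while with hairpin 1 it was near the control. Bright genes weigh most in this sum, the secretin gene Sct among them. The log2 level of Sct was 3.99 with hairpin 2 and 4.45 with hairpin 1 at day 12, and 2.62 and 4.14 at day 9.

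The other comparisons of this list called no gene either, against 0.00662% of all probes for knockdown against control. Knockdown minus control had a median of -0.14, with 16 of 22 lower; the homeobox gene Esx1, a placental regulator, had -0.995 (SE 0.20, adjusted p = 0.303) and the receptor Fgfr2 -0.67 (SE 0.32, adjusted p = 0.559), each lower in 4 of 4 pairs. Day 12 minus day 9 had a median of -0.09, with 13 of 22 lower; Prl3d1, a hormone of giant cells, had 1.38 (SE 0.38, adjusted p = 0.286) and the secretin gene Sct 0.77 (SE 0.40, adjusted p = 0.571), each higher in 3 of 3 pairs. Gcm1, the regulator of syncytiotrophoblast, was well above background on 1 array and the cathepsin Cts7 on 0.

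Of 18 genes of simple epithelium, 14 were lower with hairpin 2 than with hairpin 1 and 4 higher, with a median of -0.27. The keratin Krt7 had -1.03 (SE 0.25, adjusted p = 0.276) and the galectin Lgals3 -1.06 (SE 0.26, adjusted p = 0.276). Knockdown minus control had a median of -0.05, with Tjp1 at -0.67 (adjusted p = 0.402) and Cldn6 at -0.52 (adjusted p = 0.490), both of tight junctions. Day 12 minus day 9 had -0.09, with Cldn6 at -0.89 (adjusted p = 0.186) and Aqp3 at 0.65 (adjusted p = 0.339). The summed level was 134 with hairpin 2 and 158 with hairpin 1 against 138 in the control at day 12, and 110 with hairpin 2 and 158 with hairpin 1 against 145 in the control at day 9. In bulk RNA, fewer cells of a type and less RNA per cell cannot be told apart.

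Genes near Cdx2 and Gata2 in family or in the gut were mixed. Of 7 tested Cdx paralogues and gut epithelial genes, 5 were lower with hairpin 2 than with hairpin 1, with a median of -0.36; the day 12 median was -0.72 and the day 9 median 0.21. The mucin Muc13 had -1.52 (SE 0.26, adjusted p = 0.180) and the galectin Lgals4 -0.50 (SE 0.19, adjusted p = 0.444). For knockdown against control, 4 of the 7 genes were higher and 3 lower, with a median of 0.04. Muc13 stood at 1.10 (adjusted p = 0.595) and Lgals4 at 0.45 (adjusted p = 0.586), each higher in 3 of 4 pairs. With hairpin 2 at day 12 Muc13 had -4.91, against -4.80 in the control. Lgals4 stood at 0.74 (adjusted p = 0.318) and the guanylin gene Guca2a at 0.66 (adjusted p = 0.314) for day 12 against day 9. Cdx4 and Cdh17 were well above background on 0 arrays. Among Gata paralogues, Gata6 had -0.89 (SE 0.25, adjusted p = 0.326) and Gata1 0.45 (SE 0.20, adjusted p = 0.492) for hairpin 2 against hairpin 1. For knockdown against control they stood at 0.66 (adjusted p = 0.622) and -1.17 (adjusted p = 0.289), and for day 12 against day 9 Gata4 had 0.70 (adjusted p = 0.307) and Gata6 0.40 (adjusted p = 0.739). The 12 genes of the Hippo pathway, upstream of Cdx2, had a median of -0.03 between the hairpins. Wwtr1, a partner of TEAD factors, had -0.56 (adjusted p = 0.535) and Nf2 0.39 (adjusted p = 0.523). Both gaps lay mostly at day 9. Wwtr1 had 2.56 with hairpin 2 and 2.63 with hairpin 1 at day 12, and 1.66 and 2.70 at day 9. Nf2 had 0.63 and 0.45 at day 12, and 1.09 and 0.49 at day 9. In knockdown against control, Amot, which holds YAP1 out of the nucleus, had 0.86 (SE 0.14, adjusted p = 0.239) and was higher in 4 of 4 pairs, and the kinase Stk3 had -0.35 (SE 0.14, adjusted p = 0.490). For day 12 against day 9 the kinase Lats2 had -0.44 (adjusted p = 0.313) and Yap1 -0.27 (SE 0.26). Yap1 was higher at day 12 in 2 of 3 pairs and lower only with hairpin 2, at 0.67 on day 12 and 1.58 on day 9.

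**Figure D5:**
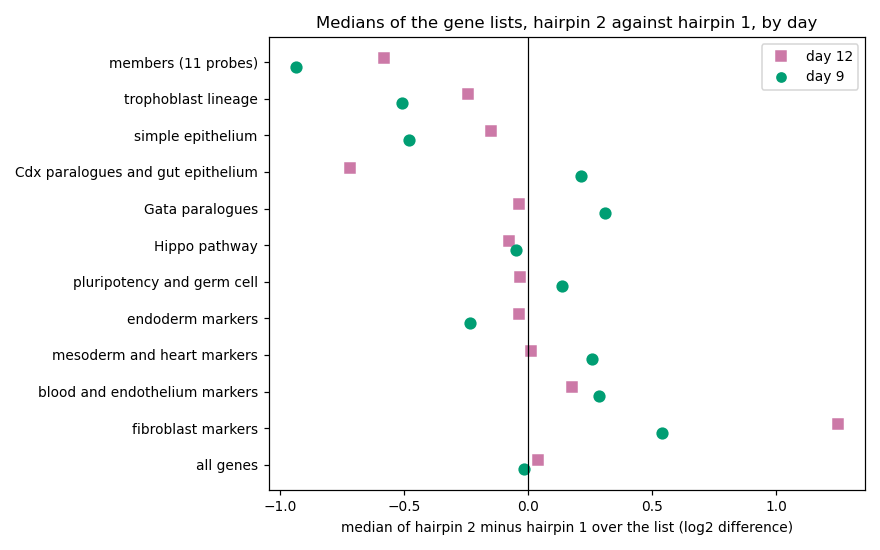
Median log2 difference, hairpin 2 minus hairpin 1 (horizontal axis), for the 11 probes of the 9 genes, for 10 gene lists and for all genes tested; squares are day 12 and circles day 9. The 9 genes lie farthest left at day 9 (-0.94), the fibroblast list lies farthest right at day 12 (1.25), and all genes lie near 0.

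Among the lists of markers of other cell types, that of fibroblasts differed most between the hairpins. All 8 fibroblast markers tested were higher with hairpin 2 than with hairpin 1 in the fit over both days. Of these, 7 were higher in each day's pair, against 30.5% of all probes tested. The median was 0.84, with Col3a1 at 1.04 (SE 0.31) and Postn at 0.99 (SE 0.26). Their summed level was 25.3 with hairpin 2 and 22.1 with hairpin 1 against 22.1 in the control at day 12, and 34.6 with hairpin 2 and 25.1 with hairpin 1 against 27.1 in the control at day 9. Fn1, at log2 levels of 4.19 to 4.74, made up most of each sum. The list median of differences from the control was 2.14 with hairpin 2 and 0.84 with hairpin 1 at day 12, and 0.97 and 0.48 at day 9. Of the 9 endoderm markers tested, 4 were higher and 5 lower with hairpin 2 than with hairpin 1, with a median of -0.01; the largest differences were 1.61 (SE 0.23) for Apoa1 and 1.43 (SE 0.45) for Apob, while Gata6, above, was lower. Ttr, another endoderm marker, was well above background on 0 arrays. The summed endoderm level was 2.51 with hairpin 2 and 2.91 with hairpin 1 against 1.304 in the control at day 12, and 2.13 with hairpin 2 and 2.75 with hairpin 1 against 1.38 in the control at day 9. Between the hairpins, the median was 0.11 for pluripotency and germ cell genes, with Dppa3 at 0.62 and Nanog at 0.49, and 0.07 for mesoderm and heart, with T at 0.58 and Nkx2-5 at -0.15. It was 0.23 for blood and endothelium, with Cdh5 at -1.58 and Pecam1 at 0.66.

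For knockdown against control, the medians were 1.15 for fibroblast and 0.83 for endoderm markers. Col3a1 had 1.48 (adjusted p = 0.410) and Postn 1.31 (adjusted p = 0.425), and Afp had 2.27 (adjusted p = 0.184) and Apoa1 2.22 (adjusted p = 0.390). Of 11 pluripotency and germ cell genes 8 were lower and 3 higher, with a median of -0.098. Among them Pou5f1, whose reporter gated the sort, had 0.70 (adjusted p = 0.326), and Dppa3 had -0.62 (adjusted p = 0.542), lower in 4 of 4 pairs. Medians were 0.12 for mesoderm and heart, with T at 0.79 and Bmp4 at 0.47, and 0.13 for blood and endothelium, with Gata1 at -1.17 and Tal1 at 0.49.

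For day 12 against day 9, Col1a2 had -1.35 (adjusted p = 0.269) and Col1a1 -0.82 (adjusted p = 0.523) among fibroblast markers. Of that list 3 were higher and 5 lower, with a median of -0.26. Lum, well above background on 4 arrays, went up, with means of -4.60 at day 12 and -7.40 at day 9. Among endoderm markers, Apob had -1.09 (adjusted p = 0.584) and Gata4, given above, had 0.70. Of that list 5 were higher and 4 lower, with a median of 0.20. Prdm1 had -0.54 and Nanog -0.42, Bmp4 -0.61 and T -0.43, and Cdh5 1.60 and Runx1 -0.37. The Nanog difference came mostly from hairpin 2, at 2.95 on day 12 and 4.03 on day 9. No gene of any list passed in any of these comparisons. The part of these cell types in the differences of the 9 genes was not tested.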

How the data were processed

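Per the labels, total RNA from 6 sorted samples was labelled with Cy3 by the Agilent one-color protocol. Per the file headers, the deposited scanner files hold spot intensity from Agilent Feature Extraction 9.1.3.1, detrended and background-subtracted but not normalized between arrays. The deposited table of the authors holds a ratio, each signal over 1 constant per array, and each file a quality score that served only to match its 41529 entries to spots (tolerance 1e-06).

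Intensities were put on the log2 scale, the 75th percentile of every array became 0, and spots of a probe were averaged; the deposited values themselves are not log2. Probes that 2 or more of the 6 arrays read well above background entered the fits (limma 3.58.1 under R 4.3.3), with Benjamini-Hochberg adjustment over all 30214 and two-sided tests. Knockdown against control had day as a term, day 12 against day 9 had knockdown or control as a term, and hairpin 2 against hairpin 1 had day and vector. A gene of a list was read on its brightest probe. The number of arrays limits the precision.

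The genes, the 10 lists and the motifs were chosen with earlier results of these data known. For each list and comparison the 2 genes of largest difference among those well above background on all arrays were named, and for each member the 3 genes of highest Pearson's r. No p is given for members between vectors. A trophoblast, Gata or other list gene can also be a marker in another list.

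Deviations from the day's mean correlated between days for the same vector (r = 0.407 for control, 0.554 for hairpin 1, 0.235 for hairpin 2) and not for different vectors (-0.339 to -0.054). Since the deviations of a day cancel out, positive values for the same vector bring negative ones for different vectors. On the same-vector values, the vector was also fitted as a replicate block. Other alternatives were normexp with an offset of 50, quantile normalization, no filter, a filter on all 6 arrays and the authors' table. Further ones were the brightest probe per gene, a trend and robust prior, and leaving out each array.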

Additional observations from a re-analysis of the deposited data

How the results depend on the processing

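Over the 30214 probes, limma called 2 for knockdown against control, 17 for day 12 against day 9 and 1 for hairpin 2 against hairpin 1. Knockdown calls numbered 0 with the brightest probe per gene and 4 with the replicate block by vector, and 0 to 1 with 1 array left out. Day calls numbered 1 with normexp, 11 with quantile normalization, 0 with no filter, 4 with the authors' table, 30 with the brightest probe, 4 with a trend and robust prior, 246 with the replicate block and 0 to 3 with 1 array left out. Hairpin calls numbered 85 with normexp, 0 with no filter, 3 with the filter on all 6 arrays, 6 with the authors' table, 14 with the brightest probe, 30 with a trend and robust prior and 0 to 1559 with 1 array left out, the highest without hairpin 2 of day 12. The strict filter, the brightest probe and the authors' table tested fewer probes, and the setting with no filter tested more. Leaving out a hairpin array leaves 1 array of that hairpin. The cause of the other changes was not tested. For day 12 against day 9, no alternative called any of the 11 probes of the 9 genes.

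Between the hairpins, the sign held for every probe in every alternative except Tpbpa with normexp. Among differences between the days, which did not pass, signs turned with normexp for Cdx2 (-0.091), Elf5 (-0.097), Krt8 probe A_51_P242400 (0.085) and Krt18 (0.037). They turned with quantile normalization for that Krt8 probe (0.023), and with the authors' deposited table for Gata3 (0.019) and that Krt8 probe (0.030). With 1 array left out the day differences ran from -0.44 to 0.97 for Cdx2, -0.17 to 0.51 and -0.17 to 0.64 for the Gata2 probes and -0.25 to 0.29 for Gata3. They ran from -0.0060 to 0.42 for Hand1, -0.084 to 0.38 and -0.28 to 0.25 for the Krt8 probes and -0.36 to 0.19 for Krt18. Knockdown differences ran from -0.025 to 1.03 for Cdx2, -0.998 to -0.60 for Gata3 and -1.91 to -1.15 for Tpbpa. Normexp moved the median of all probes to 0.12, -0.14 and 0.21 in the knockdown, day and hairpin comparisons. Signal over background limits Elf5, Tpbpa and Cdx2 most.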
